A study of Homo sapiens with 4 samples.

Results

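The 10 genes described here govern the cell's polyamines, those of synthesis (ODC1, AMD1, SRM, SMS), of turnover (SAT1, SMOX, PAOX) and of the control of ODC (OAZ1, OAZ2, AZIN1). They were taken by gene symbol from a table of 64252 gene IDs, 1 ID for each symbol. All 10 passed the filter on low counts and were among the 19897 IDs tested. Polyamines are small positively charged molecules that cells make from ornithine and methionine. Ornithine decarboxylase (ODC1) makes putrescine, S-adenosylmethionine decarboxylase (AMD1) makes the aminopropyl donor, and spermidine synthase (SRM) and spermine synthase (SMS) add aminopropyl groups in turn. Turnover runs the other way, through an acetyltransferase and oxidases, and antizymes shut the pathway down by delivering ODC to the proteasome. Dividing T cells and leukemic cells are known for high polyamine demand, and ODC1 is a classical target of the MYC transcription factor.

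RNA-seq counts came from Jurkat, an established line of human T cell acute lymphoblastic leukemia. The cells had been transfected with a short hairpin RNA that lowers SOX4, an SOXC transcription factor (sh-SOX4, 2 libraries), or with a scrambled hairpin (sh-Scb, 2 libraries). The sources used here do not give the hairpin's target position, the time after transfection or whether cells were pooled or cloned. The deposited table names the control columns NC, read here as sh-Scb by elimination and by their numbers.

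Depth was 32872606 and 30830081 counts in sh-SOX4, against 36636219 and 29093287 in sh-Scb. SOX4 itself had 191 and 199 CPM, the field's depth-scaled count, here also scaled for composition, in the sh-SOX4 libraries, against 271 and 277 CPM in the sh-Scb libraries, so 71.1% of its message was still present. All 12 T lineage markers examined were above 5 CPM in every library, and 12 of 14 markers of B, myeloid, erythroid, epithelial and fibroblast cells were below 2 CPM in every library. The other 2 were CD79A, a B cell receptor chain, at 13.1 and 13.4 CPM in sh-SOX4 against 67.2 and 65.9 CPM in sh-Scb, and COL1A1, a collagen chain, at 17.2 and 17.4 CPM in sh-SOX4 against 24.4 and 25.8 CPM in sh-Scb. The summed level of the 3 B markers was 13.7 to 13.9 CPM in sh-SOX4 and 66.3 to 67.8 CPM in sh-Scb, and the part of any such cells in the results below was not tested. LYZ, HBB and COL1A2 had 0 counts in all 4 libraries. In bulk libraries a change in every cell and a change in a share of the cells cannot be told apart.

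Several of these genes carry short sequences through which they are known to be regulated, and those that bear on the genes described below are shown here. Antizyme is made only when the ribosome slips by a base at the end of a first short frame, and polyamines promote that slip. The stretch around this site, read from GENCODE release 29 transcripts with the codon before the stop and the stop itself in capitals, was alike in OAZ1 (chromosome 19) and OAZ2 (chromosome 15), with 47 of 57 bases identical.
OAZ1: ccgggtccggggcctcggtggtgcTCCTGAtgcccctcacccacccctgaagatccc
OAZ2: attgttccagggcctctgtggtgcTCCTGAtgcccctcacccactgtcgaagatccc
The annotated coding models of both genes (2 of 3 for OAZ1, 3 of 4 for OAZ2) skip 1 base there to keep a continuous frame. AMD1 messages begin with a short upstream frame at which polyamines are known to stall ribosomes. It was found in 3 of 4 coding models on chromosome 6, with its start and stop codons in capitals.
AMD1 upstream frame: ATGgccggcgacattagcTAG
Gene counts record the amount of each message, not slippage or stalling at these sites.

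The E-box CACGTG, the site that MYC and related factors bind, was looked for in the RefSeq promoter windows (GRCh38.p14), which run from 250 bases before to 50 after each transcript start. The motif is its own reverse complement, so both strands were covered at once. Windows were matched for 7 of the 10 genes, all but SMOX, PAOX and AZIN1. SRM and ODC1 held the motif, against 8.77% of all 27305 genes with a window. SMS, AMD1, SAT1, OAZ1 and OAZ2 did not hold these letters in their windows. In ODC1 the motif lay in the window of an inner transcript start, and the window of its other RefSeq start did not hold it. The stretches of SRM and ODC1 that hold it are printed, with the motif in capitals. The SRM stretch is chr1:11060025-11060268, minus strand, and ends where the annotated transcript begins. The ODC1 stretch is chr2:10447993-10448062, minus strand, which lies within the gene and outside its GENCODE exons, and which spans an inner RefSeq transcript start.
SRM: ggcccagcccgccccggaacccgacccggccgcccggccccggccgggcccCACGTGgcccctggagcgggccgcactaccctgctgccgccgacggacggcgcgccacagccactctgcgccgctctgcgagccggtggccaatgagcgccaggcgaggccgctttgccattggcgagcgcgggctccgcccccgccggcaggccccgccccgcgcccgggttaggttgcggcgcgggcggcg
ODC1: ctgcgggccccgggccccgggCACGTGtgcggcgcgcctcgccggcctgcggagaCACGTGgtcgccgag
These matches are a description of the letters, and no binding was measured. MYC itself averaged 193 ± 0.977 CPM in sh-SOX4 and 50.7 ± 2.07 CPM in sh-Scb (SD, n = 2 each). Its part in the changes of these genes was not tested.

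The comparison of sh-SOX4 with sh-Scb asked which messages differ between these groups. In this design, lower SOX4 and any other difference between the groups cannot be told apart. All 4 synthesis genes rose in sh-SOX4, SAT1 and OAZ2 fell, and SMOX, PAOX, OAZ1 and AZIN1 did not pass the test. These calls came from the quasi-likelihood test of edgeR, Benjamini-Hochberg adjusted across all IDs, at an adjusted p under 0.05. Across all IDs, 44.1% were called, 23.2% higher and 20.9% lower in sh-SOX4, against 4 higher and 2 lower among the 10 members. A larger share of IDs was called once weakly expressed ones were left out. With a filter of 10 CPM in 2 libraries, which PAOX did not pass, 3578 of 10797 IDs were higher and 3571 lower. The members again gave 4 higher and 2 lower. The median log2 fold change over the 10 genes was 0.063, against -0.010 over all tested IDs. The 4 synthesis genes together summed to 637 and 635 CPM in the sh-SOX4 libraries and to 394 and 390 CPM in the sh-Scb libraries. The 3 turnover genes summed to 51.2 and 50.4 CPM in sh-SOX4, against 74.0 and 69.5 CPM in sh-Scb. The 3 genes that control ODC summed to 758 and 760 CPM in sh-SOX4 and to 748 and 772 CPM in sh-Scb, where the ranges overlap.

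**Figure D1:**
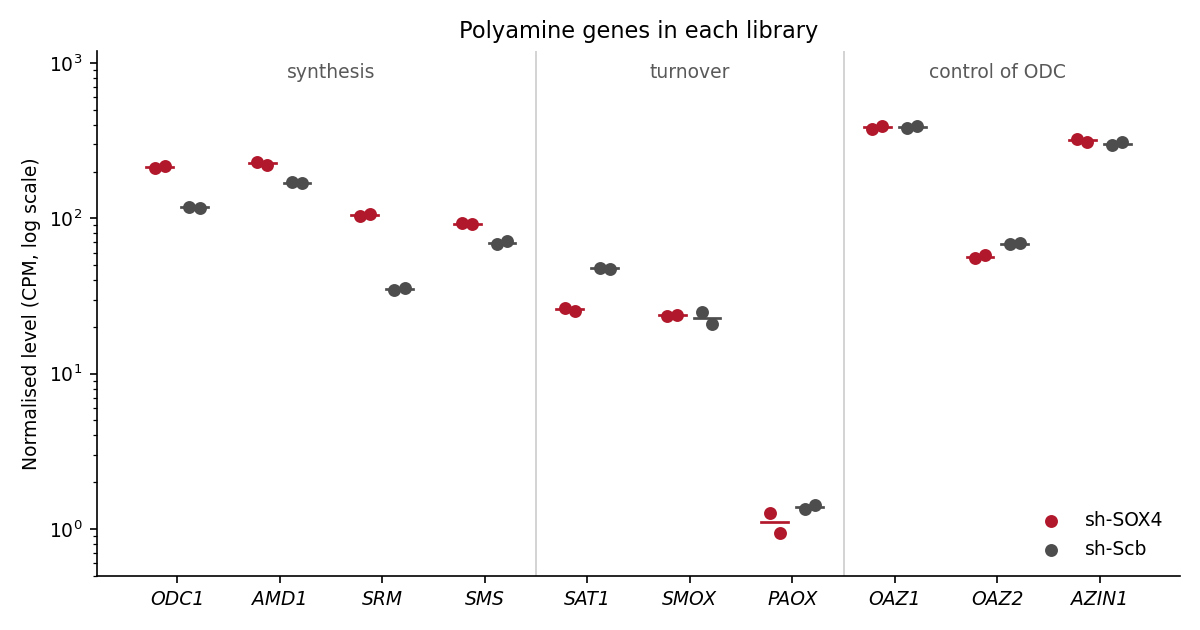
Normalised level (CPM, log scale) of each polyamine gene in the 2 sh-SOX4 libraries (red, left) and the 2 sh-Scb libraries (grey, right), with short lines at the group means. SRM averaged 105 CPM in sh-SOX4 and 35.1 CPM in sh-Scb, ODC1 213 CPM in sh-SOX4 and 117 CPM in sh-Scb, and SAT1 26.0 CPM in sh-SOX4 and 47.6 CPM in sh-Scb.

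SRM, which joins an aminopropyl group to putrescine to make spermidine, changed most (ENSG00000116649, chromosome 1, 11054584 to 11060024 on GRCh38). It had 3281 and 3163 raw counts in the sh-SOX4 libraries and 1308 and 1073 in the sh-Scb libraries, or 103 and 106 CPM in sh-SOX4 against 34.6 and 35.6 CPM in sh-Scb. Both sh-SOX4 libraries stood far above both controls, and each pair lay close together. The rise was 2.99-fold, with a log2 fold change of 1.58 (SE 0.057) and an adjusted p of 4.61e-08 by edgeR's quasi-likelihood test. Among all called IDs, 179 rose by more than SRM on the log2 scale. Its 3 annotated pseudogenes had 0 counts in every library.

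ODC1, the decarboxylase that commits ornithine to the pathway (ENSG00000115758, chromosome 2, 10439968 to 10448504), had 6648 and 6446 counts in sh-SOX4 and 4504 and 3486 in sh-Scb. This came to 210 and 217 CPM in the sh-SOX4 libraries, against 119 and 116 CPM in the sh-Scb libraries. The groups did not overlap, and the spread within each was a few CPM. The log2 fold change was 0.86 (SE 0.046), a 1.81-fold rise with a 95% interval of 1.69 to 1.95, and edgeR's adjusted p was 4.68e-07. Larger rises were called for 965 other IDs.

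The other synthesis genes rose by less. AMD1, whose product supplies decarboxylated S-adenosylmethionine (ENSG00000123505, chromosome 6, 110874770 to 110895713), had 231 and 221 CPM in sh-SOX4 and 172 and 168 CPM in sh-Scb. SMS, which converts spermidine to spermine (ENSG00000102172, chromosome X, 21940573 to 21994835), had 93.0 and 91.6 CPM in sh-SOX4 and 68.3 and 71.2 CPM in sh-Scb. In both genes each sh-SOX4 library was higher than each control. The rise was 1.33-fold for AMD1 (log2 fold change 0.41, SE 0.046, edgeR adjusted p 5.34e-05) and 1.32-fold for SMS (log2 fold change 0.40, SE 0.053, edgeR adjusted p 0.000168). Changes of that size were common, as 2995 called IDs rose by more than AMD1 and 3054 by more than SMS. The 95% interval of the SRM fold, 2.73 to 3.26, did not overlap that of ODC1, and neither overlapped the intervals of AMD1 (1.24 to 1.43) or SMS (1.22 to 1.44), which overlapped each other. The 4 AMD1 pseudogenes together had at most 11 counts in a library.

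**Figure D2:**
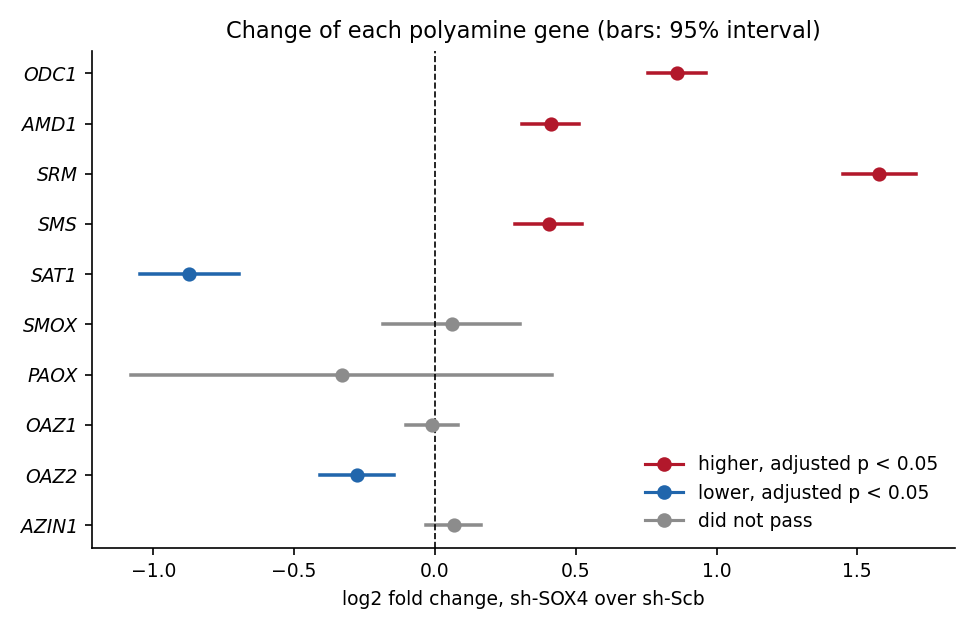
Log2 fold change of sh-SOX4 over sh-Scb for each polyamine gene, with bars for the 95% interval of the edgeR fit (2 libraries in each group). The synthesis genes all lie right of 0, between 0.40 and 1.58, SAT1 and OAZ2 lie left of it at -0.87 and -0.28, and the intervals of the other 4 genes include 0.

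SAT1, the acetyltransferase that marks spermidine and spermine for export or oxidation, is the inducible entry to turnover (ENSG00000130066, chromosome X, 23783173 to 23786226). It had 841 and 758 counts in sh-SOX4 and 1810 and 1425 in sh-Scb. The levels were 26.5 and 25.5 CPM in the sh-SOX4 libraries and 47.9 and 47.3 CPM in the sh-Scb libraries, with no overlap. Its log2 fold change was -0.87 (SE 0.078), so 54.6% of its message remained (95% interval 48.4% to 61.7%), and edgeR's adjusted p was 1.30e-05. The 2 oxidases of turnover did not pass. SMOX, which oxidises spermine directly, had 23.5 and 24.0 CPM in sh-SOX4, between the 24.8 and 20.8 CPM of sh-Scb, and its log2 fold change of 0.059 had a 95% interval of -0.18 to 0.30. PAOX, which oxidises the acetylated polyamines, was close to the limit of the filter, with 40 and 28 counts in sh-SOX4 and 51 and 43 in sh-Scb. Its 95% interval ran from -1.08 to 0.42 on the log2 scale, or 47.4% to 134% of the control level. The counts are thus compatible with a fall or a rise within those bounds.

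Among the genes that control ODC, OAZ1, the main antizyme, had 378 and 392 CPM in sh-SOX4 and 382 and 394 CPM in sh-Scb. The groups overlapped, and the log2 fold change of -0.011 had a 95% interval of -0.10 to 0.082, or 93.1% to 106% of the control level. OAZ2, a second antizyme with the same kind of frameshift site (ENSG00000180304, chromosome 15, 64687573 to 64703281), had 55.3 and 57.8 CPM in sh-SOX4 and 68.0 and 69.1 CPM in sh-Scb. It fell by 0.28 on the log2 scale (SE 0.059), to 82.5% of the control level, with an edgeR adjusted p of 0.00364. AZIN1, an ODC homologue without enzyme activity that binds antizyme and so spares ODC, had 324 and 311 CPM in sh-SOX4 and 298 and 309 CPM in sh-Scb. Those values did not overlap, yet the log2 fold change of 0.067 (95% interval -0.031 to 0.16) did not pass, with an edgeR adjusted p of 0.251. Between 5.35% and 7.22% of the exonic bases of PAOX, OAZ1, OAZ2 and AZIN1 also lie in other annotated genes, and none of those of the other 6 members do.

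Dividing by the length of all annotated exons allows levels to be compared between genes, although rarely used exons lower the value. They may do so for AMD1, OAZ2 and AZIN1, with 7027, 7671 and 6426 exonic bases. In sh-SOX4 the order by CPM per kilobase was OAZ1 (112), ODC1 (71.8), SRM (55.2), AZIN1 (49.4), SMS (42.7), AMD1 (32.2), SAT1 (10.4), SMOX (8.06), OAZ2 (7.37) and PAOX (0.483). In sh-Scb it was OAZ1 (113), AZIN1 (47.2), ODC1 (39.6), SMS (32.3), AMD1 (24.2), SAT1 (19.1), SRM (18.5), OAZ2 (8.93), SMOX (7.72) and PAOX (0.610). SRM thus stood at rank 3 in sh-SOX4 and at rank 7 in sh-Scb, where it lay just under SAT1. Per kilobase, ODC1 lay above AZIN1 in both sh-SOX4 libraries and below it in both sh-Scb libraries. By raw counts ODC1 lay below AZIN1 in all 4 libraries. That crossing thus depends on the exon lengths used, 2968 bases for ODC1 and 6426 for AZIN1. Neighbours in each order did not overlap over the 2 libraries, though SAT1 and SRM in sh-Scb, and SMOX and OAZ2 in both groups, lay close to each other.

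Ratios of raw counts within a library do not depend on how libraries are scaled. ODC1 had 0.554 and 0.553 counts for each OAZ1 count in sh-SOX4, against 0.312 and 0.294 in sh-Scb. Against AZIN1, ODC1 had 0.646 and 0.697 in sh-SOX4 and 0.400 and 0.375 in sh-Scb. SAT1 had 0.127 and 0.118 counts for each ODC1 count in sh-SOX4, against 0.402 and 0.409 in sh-Scb, the widest shift of the 5 ratios at -1.73 on the log2 scale. SMS had 0.899 and 0.862 counts for each SRM count in sh-SOX4 and 1.97 and 2.0 in sh-Scb, so that SMS lay below SRM in sh-SOX4 and above it in sh-Scb, the order also found per kilobase. OAZ2 had 0.146 and 0.148 for each OAZ1 count in sh-SOX4 and 0.178 and 0.175 in sh-Scb. The groups did not overlap in any of the 5 ratios, and the two-sided exact permutation test gave p = 0.333 for each, also after adjustment over the 5, which is the smallest p that 2 libraries against 2 allow.

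**Figure D3:**
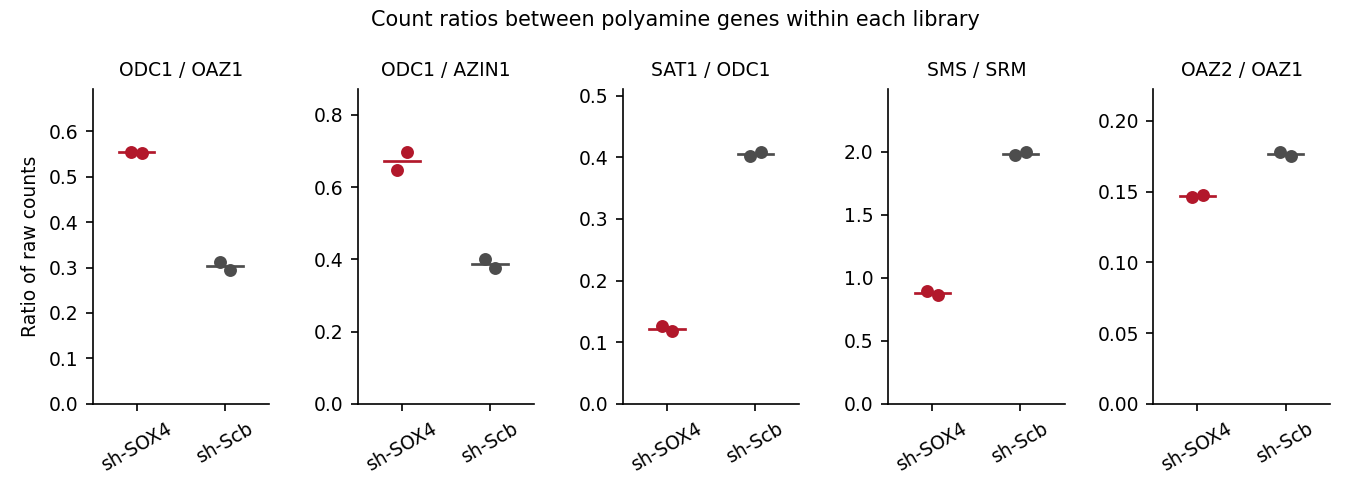
Ratio of raw counts between pairs of polyamine genes in each library, with sh-SOX4 (red) left of sh-Scb (grey) and lines at the group means; each panel has its own axis from 0. ODC1 averaged 0.553 counts per OAZ1 count in sh-SOX4 and 0.303 in sh-Scb, and SAT1 averaged 0.122 counts per ODC1 count in sh-SOX4 and 0.405 in sh-Scb.

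The genes around the pathway were read from lists of its relatives and transporters, of arginine and ornithine supply, of the methionine cycle and its salvage branch, and of hypusine formation. Of 42 genes counted from these lists 36 were tested, and 16 rose and 5 fell, or 44.4% and 13.9% of those tested, against 23.2% higher and 20.9% lower across all IDs. With the filter of 10 CPM in 2 libraries, 3578 of 10797 IDs were higher and 3571 lower, beside 15 higher and 5 lower related genes. How many related genes that filter kept is not given here. These shares of IDs are larger each way than the 23.2% and 20.9% set beside each list below, which include weakly expressed IDs. Without sh-SOX4 replicate 2 the number of related genes that fell was 2, and without sh-Scb replicate 1 it was 3. The median log2 fold change of the 36 was 0.13, against -0.010 over all tested IDs.

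Of 9 tested genes of arginine and ornithine supply, 4 rose and 2 fell, with a median of 0.14, where 23.2% of all IDs were called higher and 20.9% lower. ARG2, the mitochondrial arginase that makes ornithine from arginine, fell to 25.9 ± 0.308 CPM in sh-SOX4, against 95.3 ± 4.06 CPM in sh-Scb (SD, n = 2 each), a log2 fold change of -1.88 (SE 0.065) with an edgeR adjusted p of 3.65e-08. ARG1, the liver arginase, was not tested, with at most 10 counts in a library. SLC7A1, the main cationic amino acid transporter of the plasma membrane, rose to 266 ± 3.34 CPM in sh-SOX4, against 167 ± 3.66 CPM in sh-Scb. ALDH18A1, which makes the glutamate semialdehyde from which ornithine and proline are built, rose by 0.50 on the log2 scale, OAT, which interconverts ornithine and that semialdehyde, by 0.44, and SLC25A15, the mitochondrial ornithine carrier, by 0.58. ASS1, argininosuccinate synthase, had a log2 fold change of -0.19 (edgeR adjusted p 0.0349), and with any of the 4 libraries left out its adjusted p was 0.074 to 0.138. It was 0.055 with no filter, 0.0554 with the replicate block and 0.0908 with DESeq2.

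Methionine is the source of the aminopropyl groups, and 7 of 14 tested genes counted from its cycle and salvage rose while 1 fell, with a median of 0.22, against 23.2% higher, 20.9% lower and a median of -0.010 across all IDs. MAT2A, the methionine adenosyltransferase that makes the substrate of AMD1, rose to 467 ± 23.0 CPM in sh-SOX4, against 273 ± 8.98 CPM in sh-Scb (SD, n = 2 each). AHCY, which clears S-adenosylhomocysteine, rose by 0.79 and ADI1, a dioxygenase of the salvage branch, by 0.94 on the log2 scale. MAT2B, MTRR, ENOPH1 and MRI1 rose by 0.30 to 0.54, and the edgeR adjusted p of MRI1 became 0.0934 without sh-SOX4 replicate 2. MTR, methionine synthase, fell by 0.28 on the log2 scale. MTAP, the phosphorylase that opens the salvage of the methylthioadenosine left by SRM and SMS, had 4 and 3 counts in sh-SOX4 and 6 and 6 in sh-Scb, at or just above the floor of 3 counts. It was too low to be tested, while the salvage genes downstream of it, MRI1, ENOPH1 and ADI1, had 20.3 to 93.0 CPM on average.

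**Figure D4:**
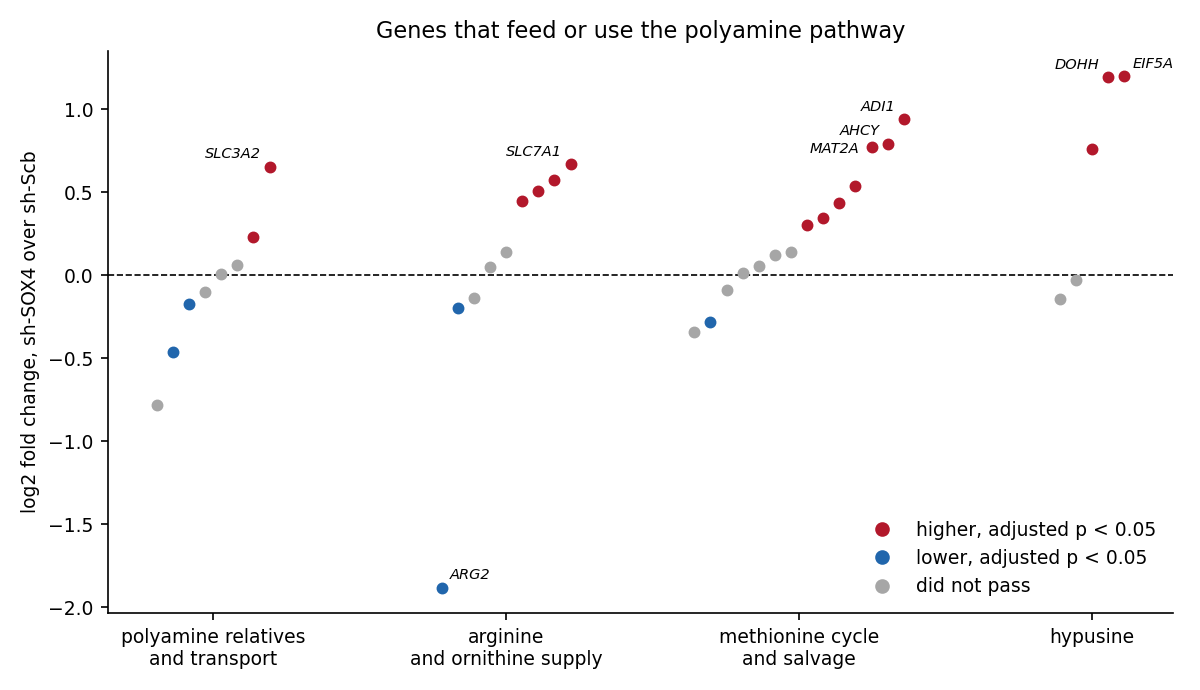
Log2 fold change of sh-SOX4 over sh-Scb for 36 tested genes around the polyamine pathway, grouped by list, each point 1 gene coloured by its call. EIF5A and DOHH lie highest, near 1.2, and ARG2 lies lowest, at -1.88.

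Spermidine is used to build hypusine, a modified lysine found on the translation factor eIF5A. Of 5 genes in that list 3 rose and none fell, with a median of 0.76, against 23.2% higher, 20.9% lower and a median of -0.010 across all IDs. EIF5A rose to 478 ± 0.671 CPM in sh-SOX4, against 208 ± 6.19 CPM in sh-Scb (SD, n = 2 each), with a log2 fold change of 1.2 (SE 0.042, edgeR adjusted p 4.13e-08). EIF5AL1, a near-identical copy, rose by 0.76. It is 1 of the 3 genes that rose, and its value is the median of the list. Reads may have been split between EIF5A and EIF5AL1, so their separate levels are uncertain. DOHH, the hydroxylase that finishes hypusine, rose to 16.5 ± 2.09 CPM in sh-SOX4, against 7.24 ± 1.26 CPM in sh-Scb. DHPS, the synthase that uses spermidine for the first step, had 58.4 and 61.4 CPM in sh-SOX4 and 62.1 and 60.2 CPM in sh-Scb and did not pass, nor did EIF5A2.

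Of 8 tested relatives and transporters, 2 rose and 2 fell, with a median of -0.045, beside the same shares across all IDs. SLC3A2, the heavy chain of amino acid exchangers that has also been linked to polyamine export, rose by 0.65 on the log2 scale (SE 0.053). ATP13A2, a lysosomal polyamine exporter, had a log2 fold change of 0.23 (edgeR adjusted p 0.0145), and ATP13A3, a related transporter known for polyamine uptake, of -0.18 (edgeR adjusted p 0.00641). AZIN2, a paralogue of AZIN1, had 6.62 and 5.71 CPM in sh-SOX4 and 9.20 and 7.77 CPM in sh-Scb, with an edgeR adjusted p of 0.0493. Without sh-SOX4 replicate 2 the adjusted p became 0.117 for ATP13A2, 0.0816 for ATP13A3 and 0.199 for AZIN2. Leaving out sh-Scb replicate 2 gave 0.0731 for ATP13A2, and leaving out sh-Scb replicate 1 gave 0.267 for AZIN2. ATP13A2 also lost its call with library totals (adjusted p 0.119), and AZIN2 with no filter (0.0681) and with DESeq2 (0.113). SAT2, OAZ3, SLC18B1 and AOC1 did not pass, and SATL1 and SLC22A16 were too low to be tested.

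The genes whose pattern over the 4 libraries lay nearest to that of SRM, by Euclidean distance of centred log2 CPM among 11948 IDs with a symbol and a mean log2 CPM of at least 2, were ARMC6 (distance 0.066), DDX21 (0.070) and HSD17B10 (0.075). DDX21, a nucleolar RNA helicase, had 532 and 521 CPM in sh-SOX4, against 181 and 184 CPM in sh-Scb. HSD17B10, a mitochondrial dehydrogenase, had 83.6 and 86.5 CPM in sh-SOX4, against 29.8 and 28.9 CPM in sh-Scb. ARMC6 had 61.1 and 64.3 CPM in sh-SOX4 and 21.5 and 20.9 CPM in sh-Scb. With 4 libraries in 2 groups this likeness is mostly the size of the group difference.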

How the data were processed

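The authors deposited 1 table of whole-number counts per gene ID, with no normalization, and it was used as it stands. Per the labels' protocols, TRIzol RNA went into an Illumina TruSeq RNA kit. HISAT2 2.2.0, StringTie and hg38 appear in the submitters' processing notes. The annotation release, strand use and filters: not given in the sources used here. Without strand, reads of overlapping genes cannot be told apart. Symbols, positions and exon lengths came from GENCODE release 29 on GRCh38, which hg38 names, and a table of current symbols; 56591 of 64252 IDs matched, with 98.2% of counts.

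The fit was the robust quasi-likelihood model of edgeR 4.0.16 in R 4.3.3, by group, after filterByExpr (at least 10 counts, and 15 in total) and TMM scaling, with Benjamini-Hochberg adjustment over 19897 IDs. Each SE is the log2 fold change in size over the root of its F statistic. A floor of 3 counts is 0.0819 to 0.103 CPM in the 4 libraries and covers counting error only. The labels name no separate cultures, and the p-values reflect only the spread between these libraries, which may be technical. Within groups, libraries differed by more than sampling (median chi-square per gene 1.60 in sh-SOX4 and 1.71 in sh-Scb, against 0.455 for sampling alone).

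The members, the lists and the rule for named genes (all members, then of each list the called genes with the smallest adjusted p, and the 3 nearest patterns) were chosen with earlier results of these data known. SOX4 was named as the target of the hairpin, and MYC was added outside that rule. Some genes of the related and marker lists are not reported here, and the lists' counts and medians leave them out. The settings tried beside the main one were size factors by median ratio, scaling to totals alone, no filter, a filter of 10 CPM in 2 libraries, DESeq2 1.42.0, limma-voom (limma 3.58.1), a replicate block, each library left out and pseudogene counts added. The pipeline was also run on simulated counts in which far fewer genes changed than were called here. That run does not check its error rates on these data. Ratios were tested with scipy 1.17.1, and figures drawn with matplotlib 3.10.9.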

Additional observations from a re-analysis of the deposited data

How the results depend on the processing

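The 4 higher and 2 lower calls among the polyamine genes stood under all 12 alternatives. Over these, the log2 fold change ran from 1.48 to 1.60 for SRM, from 0.76 to 0.89 for ODC1, from 0.31 to 0.44 for AMD1, from 0.31 to 0.43 for SMS, from -0.97 to -0.85 for SAT1 and from -0.38 to -0.24 for OAZ2, and the highest adjusted p of any of them was 0.0306, for OAZ2. Library totals gave the smallest rises and moved the median of all IDs to -0.109, against -0.010 with TMM. The sign of some genes that did not pass was not stable. SMOX had -0.0394 with library totals, -0.00406 with the filter of 10 CPM in 2 libraries and -0.0654 to 0.20 with a library left out. AZIN1 had -0.0324 with library totals, and OAZ1 ran from -0.0387 to 0.02 with a library left out. PAOX had no value under the filter of 10 CPM. The count of related genes called lower was 5 and became 2 to 4 with a library left out, 2 without sh-SOX4 replicate 2 and 3 without sh-Scb replicate 1, and it was 3 with no filter and 3 with DESeq2. Over all IDs, between 7149 and 8889 were called, against 8775, and with library totals 3629 were higher and 5260 lower, against 4609 and 4166. Same-numbered libraries did not deviate together over the tested IDs (correlation -0.010), and the main fit did not take the numbers as pairs. With 2 libraries in each group this value cannot show that pairing was absent. With the replicate block 8378 IDs were called, and 4 members were higher and 2 lower. PAOX had the lowest counts of the 10 members, and 6 of the 42 related genes were too low to be tested.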
